A study of Rattus norvegicus with 13 samples.

Results

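The genes that carry iodide through the thyroid follicular cell and recover it from unused hormone precursors were described in the thyroids of 13 male Wistar rats, 6 in the KI-treated and 7 in the control group. Their 8 gene names, of 36174 on the array (Slc5a5, Slc26a4, Slc5a8, Iyd, Ano1, Cftr, Kcnq1 and Kcne2) were looked up in the gene name column of the array, and every probe found was kept, which gave 11 of the 45598 gene probes. The mothers of the KI-treated group had been given potassium iodide (KI) by gavage at 1 mg/kg/day for 8 days from gestational day 9, to day 16 by the methods or day 17 by the introduction, and the mothers of the control group had been given saline. No animal of either group received KI after birth, and all thyroids were collected 30 days after weaning, at postnatal day 51. The sources used here do not say which animals were littermates, so each array was taken as 1 animal, and a p-value measures only the spread between these animals. The mothers were the treated unit, so if animals shared a litter, p-values may be too small and intervals too narrow. Expression was measured on 1-colour microarrays carrying 60-base probes, and all levels below are log2 of the processed spot signal relative to the 75th percentile of the same array, so that positive levels lie above that percentile. Probes bind with different strength, so a level is compared between animals and never between probes.

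Iodide enters the follicular cell from the blood through the sodium/iodide symporter (Slc5a5), which is driven by the sodium gradient. A potassium channel built of Kcnq1 and Kcne2 sits in the same basolateral membrane and is required for full symporter activity in the mouse thyroid. At the apical membrane iodide leaves for the colloid, where it is bound to thyroglobulin, and Slc26a4 (pendrin), Ano1 and Cftr are the exchanger and channels named for this step. Slc5a8, an apical carrier first described as an iodide transporter, carries monocarboxylates together with sodium. Iyd is the deiodinase that strips iodide from mono- and diiodotyrosine so that it can be used again.

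Each probe was printed as 1 spot, and its position on the transcript decides which end of the message it reads. The first 30 of the 60 bases are shown for the probes on which the results below turn, namely the symporter, the deiodinase, the probe of Kcnq1 and both Kcne2 probes, with the pendrin probe as the member that gave no signal.
Slc5a5: tcattctttttcattgccaagttgtcttgt
Iyd: tgagatcccaggaattctatgagctcctca
Kcnq1: gttaagggcatcgcggtttctcccaggatc
Kcne2 probe 1: gtgactacatgagatgataccttagtcatt
Kcne2 probe 2: tcaccctgataaagaacgagagtccatctg
Slc26a4: actttgctttgcttcaagacgatgtactag
The array files place the Slc5a5 probe (A_44_P115192) at chr16:19056181-19056240 on the plus strand, from base 2745 of its transcript. The Iyd probe (A_43_P21810) lies at chr1:34250639-34250698 on the plus strand and starts at base 259, near the 5′ end. The Kcnq1 probe (A_42_P787920) lies at chr1:203803528-203803587 on the plus strand, from base 2877. The brighter Kcne2 probe, called probe 1 (A_44_P1081425), lies at chr11:32290711-32290770 and starts at base 1600, whereas probe 2 (A_43_P13228) at chr11:32289667-32289725 starts at base 556 of the same transcript, both on the plus strand. The Slc26a4 probe (A_42_P454378) is spread over 1060 bases of the minus strand of chr6, from 49394773 to 49395832, so its bases are not contiguous on the chromosome. Coordinates are those of the array files, whose header names build rn4; exon and UTR annotation of that build was not used here. No member probe shared its sequence with another probe of the array.

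The markers of the labelled tissue were present, since all 9 follicular cell markers (among them Tg, Tshr and Pax8) passed the background filter and Tg lay at 7.94 ± 0.15 (SD, n = 6) after KI and at 8.12 ± 0.13 (SD, n = 7) after saline. All 4 parathyroid and all 5 C cell markers were also detected, so the samples held more than follicles. Of 58717 gene spots, 34840 to 41050 per array were well above background and 0 were saturated. The arrays were scanned in 3 sessions, of which the first held 2 KI-treated and 2 control animals, the second 3 and 2, and the third 1 and 3. Among the arrays, controls 4 and 6 stood apart most, and control 7 to a lesser degree. An index was formed from 746 transcripts, none of them members, that have a 5′ and a 3′ probe 1000 or more bases apart: for each array, the median of the 3′ minus 5′ level after the median of all arrays was removed. It was 0.49 in control 4, 0.28 in control 6 and 0.12 in control 7, against -0.07 to -0.05 in the other 4 controls and -0.03 to 0.00 in the 6 KI-treated animals. In control 4 the 3′ probe stood higher than usual in 75.3% of the transcripts in control 6 in 68.9% and in control 7 in 67.2%, against 32.3% to 50% in the other 10 animals. Controls 4 and 6 are also the 2 controls of the first scan session, where KI 2 and KI 3 lay on the same slides with an index near 0. The RNA integrity of each sample was not given in the sources used here, and the comparisons between the groups are therefore given for the members with and without controls 4 and 6. Control 7 was kept in both, so the comparisons without controls 4 and 6 still hold an array with a raised index.

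Slc5a5, the symporter, was well above background in every thyroid and varied widely between animals, with no difference between the groups beyond that spread. Its level was 2.72, 3.58, 4.04, 4.59, 3.39, 4.72 and 3.28 in controls 1 to 7, and 3.86, 3.44, 3.72, 4.80, 3.16 and 3.63 in KI-treated animals 1 to 6. The highest values were those of KI 4, control 6 and control 4, the lowest was that of control 1, and the groups overlapped along nearly their whole range. The KI-treated mean was 3.77 ± 0.56 (SD, n = 6) and the control mean 3.76 ± 0.73 (SD, n = 7). The difference of 0.01 (standard error 0.33, 95% interval -0.71 to 0.73) was far smaller than that spread (exact permutation p = 0.977, adjusted p = 0.990 in limma). The interval runs from 0.613-fold to 1.66-fold, so a change of that size could not have been seen with these animals. In bulk tissue, fewer follicular cells and less symporter message per cell cannot be told apart. The highest control thyroid held 4.02-fold more Slc5a5 signal than the lowest, or 2.50-fold without controls 4 and 6. The control SD stood at the 88.1th percentile of all probes tested, and at the 84.8th without those animals. Probes of similar brightness that were printed 5 or more times on the array differed between their own spots by an SD of 0.04, which holds neither labelling nor hybridisation nor RNA quality. Without controls 4 and 6 the control mean was 3.4 ± 0.48 (SD, n = 5) and the difference was 0.37 (95% interval -0.26 to 0.999, exact permutation p = 0.297). Within the 3 scan sessions the difference was -1.08, 0.41 and 1.23, with the negative value in the session that holds controls 4 and 6.

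**Figure D1:**
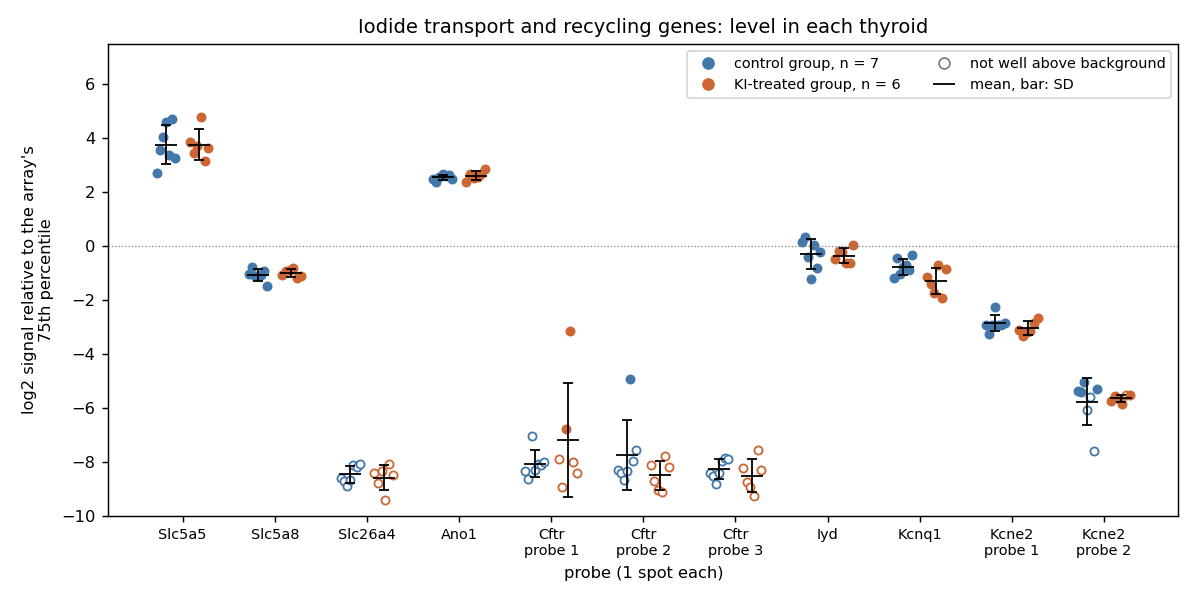
Level of the 11 probes of the 8 genes in each thyroid, as log2 signal relative to the array's 75th percentile (y axis), with probes along the x axis, control animals in blue, KI-treated animals in orange, open circles for spots not well above background and black bars for mean and SD. The groups overlap at every probe, Slc26a4 and nearly all Cftr spots are open, and levels of different probes cannot be compared.

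Of the apical exit routes, Ano1 was measured well, Slc26a4 not at all and Cftr in single animals only. Ano1, a calcium-activated chloride channel that also passes iodide (A_42_P495579, chr1:205018645-205018704, minus strand, base 4469), had the smallest control SD of the tested members. Its level was 2.50, 2.39, 2.56, 2.67, 2.62, 2.63 and 2.48 in controls 1 to 7, and 2.40, 2.66, 2.51, 2.58, 2.67 and 2.88 in KI-treated animals 1 to 6. The control animals spanned 1.22-fold and their SD of 0.10 lay at the 1.80th percentile of the probes tested. The KI-treated mean was 2.62 ± 0.16 (SD, n = 6) and the control mean 2.55 ± 0.10 (SD, n = 7). Their difference of 0.07 (standard error 0.09, 95% interval -0.14 to 0.27) did not exceed the spread (exact permutation p = 0.406, adjusted p = 0.770 in limma). On the fold scale the interval runs from 0.910-fold to 1.20-fold. Within the scan sessions the difference was -0.06, 0.21 and 0.02, and without controls 4 and 6 it was 0.11 (95% interval -0.10 to 0.31).

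Slc26a4, the pendrin anion exchanger, was not well above background on any of the 13 arrays. Its processed signal ran from 3.42 to 7.41 fluorescence units (median 4.29) and was a surrogate value set by the scanner software on 10 arrays. Its levels of -9.43 to -8.08 lay below the dimmest gene spot that passed on each array, which was at -7.22 to -5.85. No fold change can be given for it, and a message below this limit would not have been detected.

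Cftr, a chloride channel opened by cyclic AMP signalling, has 3 probes on chr4, numbered by brightness, and they did not give the same picture. Probe 1 (A_44_P1104518, 44010447 to 44010506) was well above background in KI 3 at -6.80 and KI 4 at -3.14 and in no control. Probe 2 (A_64_P103537, 44041769 to 44041828) was well above background in control 5 alone, at -4.93, and probe 3 (A_64_P103542, 44038828 to 44038887) in no animal. In KI 4, where probe 1 read a signal of 268 units, probes 2 and 3 were at -9.14 and -9.28 and not above background. The symbol of probe 1 rests on a predicted transcript that was not matched in the RefSeq gene table, while the accessions of the other 10 member probes matched their symbols. No fold change between the groups was formed for any of the 3 probes.

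Slc5a8, the apical monocarboxylate carrier (A_44_P1088336, chr7:25625797-25625856, plus strand, base 1643), was well above background in all animals. Its level was -1.05, -0.78, -1.11, -1.10, -1.08, -0.92 and -1.47 in controls 1 to 7, and -1.08, -0.92, -0.88, -0.81, -1.18 and -1.11 in KI-treated animals 1 to 6. Apart from control 7, which was the lowest, all animals lay within a narrow band. The KI-treated mean was -0.999 ± 0.15 (SD, n = 6) and the control mean -1.07 ± 0.21 (SD, n = 7), with a difference of 0.07 (standard error 0.11, 95% interval -0.17 to 0.32, exact permutation p = 0.522, adjusted p = 0.791 in limma). Within the scan sessions it was 0.11, -0.21 and 0.41, and without controls 4 and 6 it was 0.10 (95% interval -0.17 to 0.37).

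Iyd, the iodotyrosine deiodinase that recycles iodide, was at 0.15, 0.35, -0.40, -1.21, 0.06, -0.81 and -0.20 in controls 1 to 7. In the KI-treated animals it was at -0.49, -0.17, -0.22, -0.64, -0.61 and 0.03. The lowest of all 13 thyroids were controls 4 and 6, and the highest were controls 2 and 1. The KI-treated mean was -0.35 ± 0.27 (SD, n = 6) and the control mean -0.29 ± 0.56 (SD, n = 7). The difference of -0.05 (standard error 0.23, 95% interval -0.56 to 0.45) did not exceed the spread (exact permutation p = 0.829, adjusted p = 0.930 in limma). The control animals spanned 2.95-fold, or 1.69-fold without controls 4 and 6. Without controls 4 and 6 the control SD was 0.30 in place of 0.56, the control mean was -0.01, and the difference was -0.34 (95% interval -0.70 to 0.01, exact permutation p = 0.0758, adjusted p = 0.560 in limma). Within the scan sessions the difference was 0.82, -0.61 and -0.46, so the sign in the session of controls 4 and 6 was the opposite of the rest. Over the 13 arrays, with group means removed, Iyd ran against the 3′ minus 5′ index (Pearson's r = -0.81, permutation p = 0.00865, adjusted p = 0.0605 over 7 probes, Spearman's rho = -0.63, permutation p = 0.0611, adjusted p = 0.280). That relation was weaker without controls 4 and 6, where r was -0.47 and no p was computed. With session means removed r was -0.82. With the index as a covariate the difference between the groups was -0.29.

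**Figure D2:**
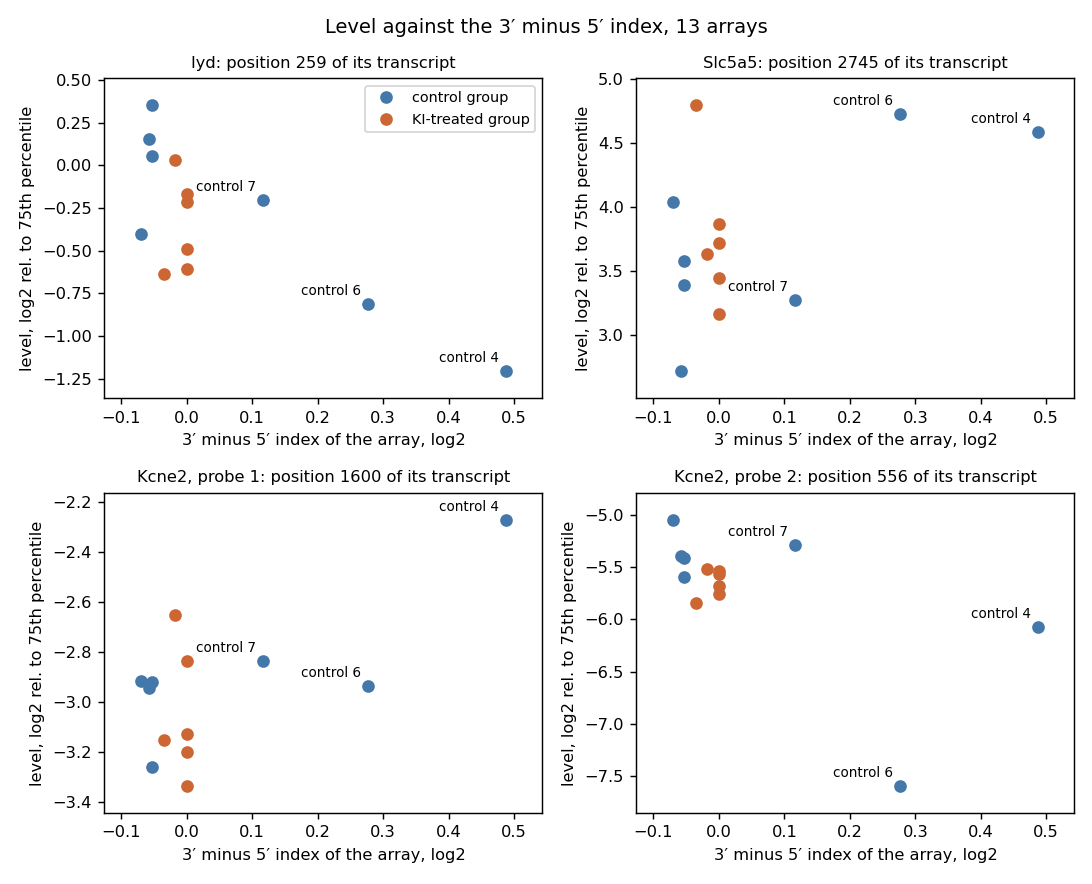
Level of 4 member probes (y axes, log2 relative to the 75th percentile) against the 3′ minus 5′ index of the array (x axes, log2), with control animals in blue and KI-treated animals in orange. Controls 4 and 6, at 0.49 and 0.28, hold the 2 lowest values of Iyd and of Kcne2 probe 2, whose probes start at bases 259 and 556. At Kcne2 probe 2 neither was well above background. They also hold 2 of the 3 highest values of Slc5a5, whose probe starts at base 2745. The r of Slc5a5 with the index, with group means removed, was 0.56 (permutation p = 0.0886, adjusted p = 0.207), or 0.12 without controls 4 and 6. Its Spearman's rho was 0.16 (permutation p = 0.645). The r of Kcne2 was 0.62 at probe 1 (permutation p = 0.0470, adjusted p = 0.165) and -0.61 at probe 2 (permutation p = 0.148, adjusted p = 0.225). Without controls 4 and 6 these were 0.30 and -0.58. The tested probes not shown were those of Slc5a8, Ano1 and Kcnq1, at bases 1643, 4469 and 2877. Their r with the index was -0.10, 0.33 and -0.0003.

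Kcnq1, the pore-forming subunit of the basolateral potassium channel, was the member with the lowest p. Its level was -1.17, -0.45, -1.05, -0.79, -0.71, -0.90 and -0.33 in controls 1 to 7, and -1.13, -1.41, -1.74, -0.72, -1.94 and -0.86 in KI-treated animals 1 to 6. KI 5, KI 3 and KI 2 were lower than every control, KI 4 was higher than the control median, and the other 2 KI-treated animals lay among the controls. The KI-treated group stood at -1.30 ± 0.48 (SD, n = 6) and the control group at -0.77 ± 0.31 (SD, n = 7), a difference of -0.53 (standard error 0.21, 95% interval -0.98 to -0.08) or 0.694-fold, with 5 of 6 KI-treated animals below the control median. Before adjustment the exact permutation test gave p = 0.0390 and limma p = 0.0246, but over all probes tested the adjusted p in limma was 0.440, so Kcnq1 did not pass. Under each other processing and each omission of 1 array the difference stayed negative, between -0.64 and -0.40. The unadjusted limma p rose above the threshold without KI 3, KI 5 or control 7 and with the scan session or the replicate number as a block. The difference was -0.73 and -0.50 in the first 2 sessions and -0.02 in the third, which has 1 KI-treated animal. Without controls 4 and 6 it was -0.56 (95% interval -1.08 to -0.03, exact permutation p = 0.0649, limma p = 0.0402 before and 0.521 after adjustment).

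Kcne2, the accessory subunit that keeps the channel open, was read by 2 probes that did not move together. Probe 1 starts at base 1600 and probe 2 at base 556 of the transcript, whose length was not used here. Probe 1 was at -2.94, -3.26, -2.92, -2.27, -2.92, -2.94 and -2.84 in controls 1 to 7, and at -3.13, -3.34, -3.20, -3.15, -2.84 and -2.65 in KI-treated animals 1 to 6. Probe 2 was at -5.39, -5.42, -5.05, -6.07, -5.59, -7.59 and -5.29 in the controls and at -5.76, -5.56, -5.68, -5.85, -5.54 and -5.52 in the KI-treated animals. Control 4 was the highest of all animals at probe 1 and the second lowest at probe 2, and control 6 was the lowest at probe 2. Probe 2 is dim and was not well above background in KI 5 or in controls 4, 5 and 6, so their values there are uncertain. Over the 13 arrays, with group means removed, the 2 probes had a Pearson's r of -0.09 (permutation p = 0.712) and a Spearman's rho of 0.07 (permutation p = 0.804), and r was 0.35 without controls 4 and 6 (permutation p = 0.270).

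At probe 1 the KI-treated group was at -3.05 ± 0.26 (SD, n = 6) and the control group at -2.87 ± 0.30 (SD, n = 7), a difference of -0.18 (standard error 0.15, 95% interval -0.51 to 0.15, exact permutation p = 0.282, adjusted p = 0.615 in limma). At probe 2 the difference was 0.12 (standard error 0.33, 95% interval -0.58 to 0.83, exact permutation p = 0.897, adjusted p = 0.883 in limma), although all 6 KI-treated animals were below the control median. Without controls 4 and 6 the sign at probe 2 turned, to -0.30 (95% interval -0.54 to -0.07, exact permutation p = 0.0152, limma p = 0.0162), which did not pass after adjustment over all probes (adjusted p = 0.478). Probe 1 was at -0.07 in the same 11 animals (exact permutation p = 0.597). Within the scan sessions the difference was -0.67, 0.23 and -0.26 at probe 1 and 1.21, -0.20 and -0.54 at probe 2. The KI-treated SD at probe 2 was 0.13, under the 0.215 found between repeated spots of equally dim probes.

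**Figure D3:**
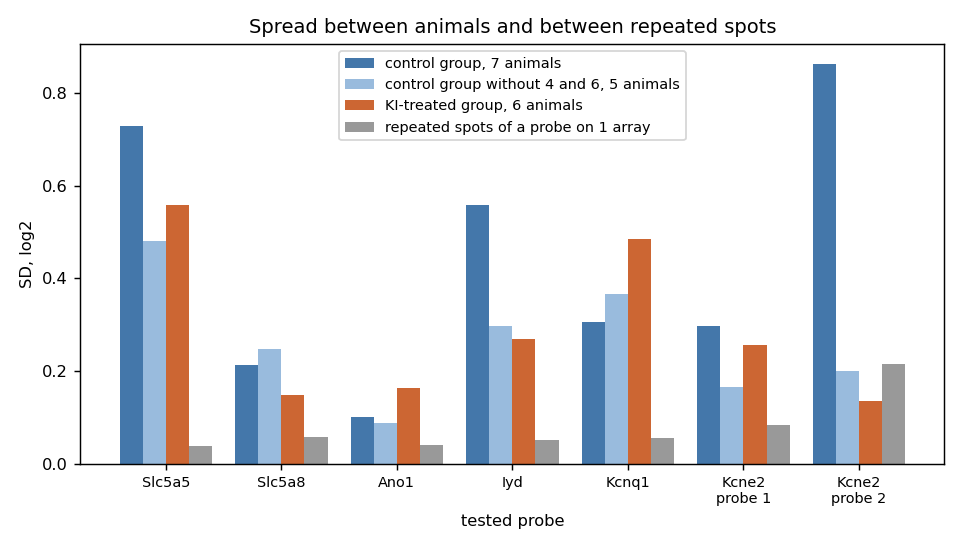
SD of the level (y axis, log2, from 0) at each of the 7 tested probes (x axis) over the 7 control animals, over 5 controls without controls 4 and 6, over the 6 KI-treated animals, and between repeated spots of probes of similar brightness on 1 array. The control SD drops from 0.56 to 0.30 for Iyd and from 0.86 to 0.20 for Kcne2 probe 2 without controls 4 and 6, whereas for Ano1 it is 0.10 and 0.09.

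In all, 7 of the 11 probes, from 6 of the 8 genes, were well above background on at least 6 arrays and were tested. None passed after adjustment over all probes, and neither did any of the 25722 probes tested (0%, limma), of which 2890 (11.2%) had an unadjusted p under 0.05. Among the member probes 1 of 7 had an unadjusted limma p under 0.05, that of Kcnq1, which was under 0.05 in the exact permutation test too, as were 11.7% of 25659 probes. It was lower after KI, as were 1133 probes (4.4%) of the array at that threshold, against 1757 (6.83%) higher. This split depends on the background correction, with 1316 higher and 2490 lower after normexp. It also depends on the controls used. Without controls 4 and 6, 927 of 2374 such probes were higher, and without control 6 alone 929 were higher. A single member among 7 is near the share of the whole array. Without controls 4 and 6 there were 2 of 7, Kcnq1 and Kcne2 probe 2, against 9.23% of all probes, and again none (0%) passed after adjustment. By its brightest probe each of 3 genes was higher and each of 3 lower after KI, where 49.9% of all probes were lower. The median difference of the 6 genes was -0.02, against 0.001 over all probes tested. No member had groups that did not overlap, as 0.472% of the probes did.

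**Figure D4:**
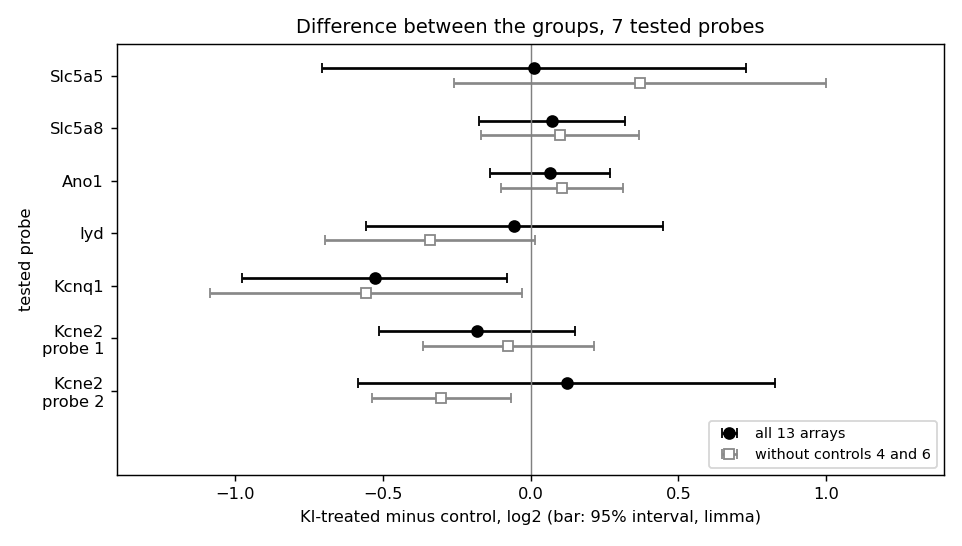
KI-treated minus control difference (x axis, log2) with its 95% interval from limma for the 7 tested probes (y axis), over all 13 arrays (black circles) and without controls 4 and 6 (grey squares). Only the interval of Kcnq1 lies wholly on 1 side of 0 over all arrays, and that of Kcne2 probe 2 joins it without controls 4 and 6; these intervals are not adjusted for the number of probes.

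Across the 13 animals, with the group means removed, 0 of the 15 pairs among the 6 tested genes passed after Benjamini-Hochberg adjustment. Slc5a5 and Iyd ran in opposite directions (Pearson's r = -0.71, permutation p = 0.0139, adjusted p = 0.104, Spearman's rho = -0.62, permutation p = 0.0401). Their r was -0.66 without the 2 animals farthest from the median of Slc5a5, -0.63 with scan session means removed, and -0.41 without controls 4 and 6 (permutation p = 0.242). Ano1 and Kcne2 probe 1 ran together (r = 0.66, permutation p = 0.0122, adjusted p = 0.104, rho = 0.66, permutation p = 0.0197), with r at 0.65 without the 2 animals farthest from the median of Ano1, 0.68 with session means removed and 0.68 without controls 4 and 6. Slc5a8 and Kcne2 probe 1 had an r of -0.50 (permutation p = 0.110, adjusted p = 0.414) and a rho of -0.75 (permutation p = 0.00624, adjusted p = 0.0936), and r was -0.71 without controls 4 and 6. The symporter and Kcnq1, which serve the same uptake step, had an r of 0.31 (permutation p = 0.292), 0.53 without controls 4 and 6 (permutation p = 0.121) and 0.45 with session means removed, and the channel subunits Kcnq1 and Kcne2 an r of -0.01 (permutation p = 0.972).

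The genes whose level followed each member most closely over the 13 arrays, with group means removed, are given as a description. They were picked as the highest of 17040 ranked probes by the same r that is printed. These values of r are therefore no test of a relation. For Slc5a5 they were Tm9sf4, Ap2a2 and Ift80, with r from 0.944 to 0.946. For Iyd they were Aimp2, Tsr3 and Nradd, with r from 0.953 to 0.957. For Kcnq1 they were Nmu and Psmb6, both at 0.92, and Gabbr2 at 0.81, and for Kcne2 probe 1 Mrpl48 at 0.93 and Atf6 at 0.87. For Ano1 they were Malsu1, Pign and Prr3, between 0.824 and 0.862, and for Slc5a8 Sh3rf3, Scarb2 and Trim33, between 0.774 and 0.801. Sh3rf3 was well above background on 8 arrays and Trim33 on 6. With controls 4 and 6 left out, the r of these genes with their member ran from 0.762 for Trim33 to 0.947 for Nmu. The neighbours of Iyd correlated with the 3′ minus 5′ index at -0.86 to -0.82, those named for Kcne2 at 0.80 and 0.82 and those of Slc5a5 at 0.48 to 0.69. Those of Ano1 were at 0.28 to 0.46, those of Kcnq1 at -0.13 to 0.41 and those of Slc5a8 at -0.36 to -0.04.

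The genes that use the iodide and those that share the membranes with the members were counted from fixed lists. Of 14 hormone synthesis genes all were tested, 0 passed after adjustment, and 10 had a negative and 4 a positive difference, with a median difference of -0.10. Dio1, a deiodinase of thyroid hormone, was 0.55 higher after KI (standard error 0.24, exact permutation p = 0.0478, adjusted p = 0.440 in limma), and 0.29 higher without controls 4 and 6. Of 16 partners in ion handling 14 were tested, 0 passed after adjustment, and 8 differences were negative and 6 positive, with a median of -0.05. Slc9a3r1, a scaffold protein that binds Cftr and other apical transporters, was 0.47 higher after KI (standard error 0.16, exact permutation p = 0.00175, adjusted p = 0.440 in limma), and 0.31 higher without controls 4 and 6. Slc26a7, an anion transporter also active in follicular cells, had a difference of -0.28 (standard error 0.13, exact permutation p = 0.0332, adjusted p = 0.444 in limma), and of -0.14 without controls 4 and 6. Kcne1, the cardiac partner of Kcnq1, and Slc26a3 were not well above background on any array. Slc26a6 had the largest difference of this list, 0.57 (exact permutation p = 0.0962) or 0.25 without controls 4 and 6, and was well above background on 7 arrays.

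Markers of other tissues differed between single animals. All 7 tested skeletal muscle markers of 8 were lower in the KI-treated group, with a median difference of -1.09 and none past 0.05 even before adjustment. The log2 of their summed level ran from -0.18 to 4.17 in the KI-treated group and from 1.89 to 5.18 in the control group. That of the lymphocyte markers was 1.89 in KI 1 and -1.19 in control 4, against -3.27 to -2.70 in the other animals. KI 1 was not at either end of any tested member probe except Ano1, where it was the lowest of the KI-treated group. Control 4 was the lowest of all animals in Iyd, the highest of all in Kcne2 probe 1 and the highest control in Ano1. Of 60 correlations between the 6 tested genes and the summed levels of 10 marker lists, with group means removed, 1 passed after Benjamini-Hochberg adjustment. Slc5a5 was lower where the summed cartilage markers were higher (Pearson's r = -0.89, permutation p = 9.0e-05, adjusted p = 0.0054, Spearman's rho = -0.92, permutation p = 5.0e-05, adjusted p = 0.0030). That r was -0.81 without the 2 animals farthest from the median of the cartilage markers, -0.89 with session means removed and -0.78 without controls 4 and 6. The cartilage markers were dim, with 3 of 5 above the background filter and a log2 summed level of -4.51 to -3.23 in the 13 animals. Those 3, Col2a1, Comp and Col9a1, were well above background on 8, 11 and 7 arrays. Acan was so on 0 arrays and Matn1 on 1, yet both entered the sum. The relation therefore rests in part on spots near or below the background limit. Iyd and the C cell markers had an r of 0.80 (permutation p = 0.00742, adjusted p = 0.194, rho = 0.67, permutation p = 0.0274, adjusted p = 0.547), with 0.30 without controls 4 and 6. Kcnq1 and the parathyroid markers had an r of -0.69 (permutation p = 0.00971, adjusted p = 0.194, rho = -0.69, permutation p = 0.013, adjusted p = 0.388), with -0.80 without controls 4 and 6. The follicular cell list was not among the 10, and no p is given for it. Its r, with group means removed, was -0.13 for Slc5a5, -0.11 for Iyd and -0.38 for Kcnq1. It was 0.08 for Slc5a8, and 0.24 each for Ano1 and Kcne2 probe 1.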

How the data were processed

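Thyroid RNA of 13 rats was hybridised to 1-colour Agilent arrays. The authors deposited scanner files with spot intensities that Feature Extraction had background-subtracted (version 10.7.3.1), with no normalization between arrays, and a table of log2 values whose normalization was not given in the sources used here and which served as an alternative. From the intensities, log2 was taken and the 75th percentile of the gene spots of the same array was subtracted, without control spots and spots flagged as outliers, and repeated spots were averaged. Probes were kept if 6 or more arrays flagged them well above background, and were tested with limma (version 3.58.1, R 4.3.3; lmFit, eBayes, Benjamini-Hochberg, threshold 0.05). Exact two-sided permutation tests ran over all 1716 splits into 6 and 7, and correlations were tested with 100000 permutations within groups (20000 where 2 arrays were left out). The test was checked on simulated data. Figures were drawn with matplotlib 3.10.9. The number of arrays limits the precision.

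A gene with several probes is represented by its brightest. The genes named are all members, list genes with an unadjusted p under 0.05 or the 2 largest changes of a list, and the 3 genes most like each member. Of the genes so selected, 2 are not reported here. The members and lists were chosen with earlier results of these data known. The 3′ minus 5′ index, the fits without controls 4 and 6, the correlations with marker lists and 2 other choices of the spots behind the percentile were added after the data had been seen. Other alternatives were quantile normalization, normexp (offset 50), the deposited log2 values, other filters, blocks, array weights, trended variances, the t-test that the study names, and leaving out each array. Columns of other samples in the tables numbered 0.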

Additional observations from a re-analysis of the deposited data

Results flagged for a closer look

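In 22 groups of values (11 probes in each group), 5 animals lay apart from the rest of their group by Dixon's ratio, where chance gives about 1 in 20 groups. At Kcne2 probe 1 this was control 4, at -2.27, above the other controls, and at Kcne2 probe 2 it was control 6, at -7.59, below them, a value not well above background. Those are the animals with the highest 3′ minus 5′ index, 0.49 and 0.28. At Cftr probe 1 it was KI 4, at -3.14, and among the controls control 3, at -7.04, which was not well above background. At Cftr probe 2 it was control 5, at -4.93. The KI 4 signal at Cftr probe 1 stands alone, since the other Cftr probes of that animal were not above background.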

How the results depend on the processing

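No member passed after adjustment under any alternative. Slc5a5, at 0.01, turned sign with slide as a block (-0.0058), with the percentile over the tested probes (-0.00038) and when single arrays were left out (-0.19 to 0.17), all within its interval. Iyd, at -0.05, ran from -0.21 to 0.053 with single arrays left out. The 2 Kcne2 probes had an r of -0.45 with the deposited log2 values, -0.24 with quantile normalization, 0.10 with normexp and 0.35 without controls 4 and 6. Of all probes, 7 passed with array weights and 1 without control 2 (0 to 1 over the omissions), against 0 with the t-test that the study names. The study itself reported differentially expressed thyroid genes by a t-test at a Q-value under 0.05. Why its result differs from the 0 found here was not tested. Probes with an unadjusted p under 0.05, 2890 at first, numbered 4487 with the session as a block (2948 of them higher) and 2040 to 4358 with single arrays left out, where the count higher ran from 929 to 2994 and the count lower from 828 to 1394. Without controls 4 and 6, 927 were higher. The count lower was 2490 with normexp and 2110 with array weights. Member probes with an unadjusted p under 0.05, 1 at first, numbered 0 with the session as a block, 2 without controls 4 and 6 (Kcnq1 and Kcne2 probe 2) and 0 to 1 with single arrays left out, with 0 without KI 3, KI 5 or control 7. The cause of these shifts was not tested.

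The sources used here do not say whether the replicate numbers pair the animals. The deviations of same-numbered animals correlated at -0.11 to 0.07, which cannot decide it, since paired animals need not correlate. With the replicate number as a block Slc5a5 was at -0.069, 0 member probes had an unadjusted p under 0.05, and 2081 probes did in all.

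Signal over background is the limit for Slc26a4 and Cftr, which could not be compared. Kcne2 probe 2 lies close to it.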
